A study of Homo sapiens with 9 samples.

Results

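The 10 genes described here, EGR1, EGR2, EGR3, IER2, IER3, IER5, NR4A1, NR4A2, SRF and PHLDA1, were taken by name from a table of 62710 genes, and all 10 were found. They are immediate early genes outside the AP-1 family, together with SRF, a factor that drives many of them. Immediate early genes are transcribed within minutes of a signal, without the need for new protein. Growth factor signals reach them through the RAS-ERK cascade, which activates ternary complex factors such as ELK1 that sit beside SRF on CArG boxes, and stress and second-messenger signals reach them through other kinases and factors such as CREB. Their transcripts are mostly short-lived, so their levels follow the signal closely. In BRAF-mutant melanoma several of them are read as output of the ERK pathway.

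RNA-seq was carried out on A375R, cells of the A375 human melanoma line that have become resistant to the BRAF inhibitor PLX4032 and that are kept in medium with PLX4032. Cells received DMSO, 10 µM VHL-r for 2 h, or 10 µM R4VPL3-1 for 2 h, with 3 biological repeats per treatment and 9 libraries in all. R4VPL3-1 is a PROTAC-like molecule that joins an RNF4-binding part to a moiety that recruits the VHL ubiquitin ligase, and VHL-r is that VHL-recruiting moiety alone. The control libraries are labelled as wild type without a dose and are called DMSO here after the methods of the study. In the column labels DMSO replicates 2 and 3 carry the time of 2 h and DMSO replicate 1 carries none. All repeats are of 1 cell line, and in its bulk RNA a change in RNA per cell and a change in the make-up of the culture cannot be told apart. The libraries held between 26435568 and 32085626 reads assigned to genes. Among melanoma markers SOX10 had 7900 to 17935 normalized counts, MITF 892.7 to 1994, S100A1 1856 to 2349, S100B 583.6 to 771.7 and DCT 914.1 to 1782, whereas PMEL was low at 20.89 to 36.77, TYRP1 lay between 1.07 and 33.61, TYR between 0 and 2.14, and MLANA was at 0 in every library. Of the markers of other cell types, PTPRC, PECAM1 and EPCAM stayed at or below 11.81, ALB was at 0, KRT5 reached 24.16 and KRT14 lay between 224.1 and 365. SOX10 and MITF were themselves lower in both compound groups, with mean normalized counts of 17547, 10200 and 8405 for SOX10 and of 1722, 1047 and 1011 for MITF in DMSO, VHL-r and R4VPL3-1. The other 4 melanoma markers above the minimum mean stayed closer to DMSO, with means of 730.3, 677.4 and 642.2 for S100B, 2154, 2103 and 1963 for S100A1, 29.92, 32.48 and 28.98 for PMEL and 1347, 1261 and 1223 for DCT in the same order, and in the limma fit described with the results 2 of the 6 (SOX10 and MITF) were called lower against DMSO with each compound and 4 were not called. KRT14 also had lower means with the compounds, at 346.8, 286.6 and 250.7, and was called lower with R4VPL3-1 (log2 change -0.47, limma adjusted p = 0.00104) and not with VHL-r (-0.27, limma adjusted p = 0.0538). The part of these marker changes in the results on the 10 genes was not tested.

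Sequence before the annotated starts was read from RefSeq windows on GRCh38.p14 for 7 of the 10 genes, with 11 windows in all. No window was used for EGR3, IER3 and NR4A2. In the 250 bases before the start, both strands were searched for the CArG box bound by SRF, for TGACGT, the core of the CREB site, for GAANNTTC, a pair of inverted heat shock factor repeats, and for GCGNGGGCG, the site of the EGR factors themselves. Matches of different motifs did not overlap in any of the 11 windows. The CArG box was found in 1.16% of all 35116 windows of this length, TGACGT in 7.1%, GAANNTTC in 5.78% and GCGNGGGCG in 8.41%. The 4 windows with any match are printed, 5′ to 3′ on the strand of the gene, because they hold the motifs of SRF, the CREB and EGR factors and HSF1, whose genes and targets are described with the results. Capitals mark the CArG boxes in EGR1, EGR2 and SRF and the GAANNTTC match in IER5. The EGR1 window is chr5:138465229-138465478 on the plus strand, the EGR2 window chr10:62816367-62816616 on the minus strand, inside the annotated gene, the SRF window chr6:43171019-43171268 on the plus strand and the IER5 window chr1:181088450-181088699 on the plus strand.
EGR1: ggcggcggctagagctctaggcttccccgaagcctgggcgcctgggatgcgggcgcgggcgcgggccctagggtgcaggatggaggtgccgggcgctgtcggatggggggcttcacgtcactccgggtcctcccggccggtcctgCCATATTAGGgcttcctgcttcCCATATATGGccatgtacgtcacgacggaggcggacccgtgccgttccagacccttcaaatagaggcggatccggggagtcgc
EGR2: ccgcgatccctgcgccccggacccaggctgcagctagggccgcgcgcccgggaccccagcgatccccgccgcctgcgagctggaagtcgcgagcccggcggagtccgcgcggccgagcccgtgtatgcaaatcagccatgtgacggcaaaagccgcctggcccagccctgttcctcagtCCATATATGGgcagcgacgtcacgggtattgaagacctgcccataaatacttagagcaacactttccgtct
SRF: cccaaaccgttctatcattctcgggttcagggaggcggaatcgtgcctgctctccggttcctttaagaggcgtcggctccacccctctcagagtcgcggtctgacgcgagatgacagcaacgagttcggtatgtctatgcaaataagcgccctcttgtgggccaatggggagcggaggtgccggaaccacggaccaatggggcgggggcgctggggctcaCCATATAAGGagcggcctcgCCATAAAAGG
IER5: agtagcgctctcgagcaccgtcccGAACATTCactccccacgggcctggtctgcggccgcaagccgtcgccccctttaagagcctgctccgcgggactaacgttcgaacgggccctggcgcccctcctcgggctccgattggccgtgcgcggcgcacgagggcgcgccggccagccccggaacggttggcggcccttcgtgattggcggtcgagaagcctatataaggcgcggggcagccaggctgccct

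The EGR1 window held 2 CArG boxes, CCATATTAGG at 105 to 96 bases and CCATATATGG at 83 to 74 bases before the start, as well as 2 matches to TGACGT and 1 to GCGNGGGCG. The SRF window also held 2 CArG boxes, CCATATAAGG at 30 to 21 bases and CCATAAAAGG at 10 to 1 bases before the start, and 1 match to GCGNGGGCG. Of 3 EGR2 windows, the one printed had 1 CArG box at 71 to 62 bases and 1 TGACGT match at 55 to 50 bases before the start, and the other 2 had no match to any of the 4 motifs. IER5 had GAACATTC at 226 to 219 bases before the start and none of the other motifs. The windows of IER2, NR4A1 and PHLDA1, and the further SRF window, held none of the 4 motifs, which says only that these letters are not in these 250 bases. A match is a description of sequence and not evidence of binding in these cells.

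The 10 genes differed widely in level. Per kb of the canonical transcript, DMSO-treated cells held most IER3, at 3416 ± 405 normalized counts per kb (SD, n = 3), and NR4A1, at 3073 ± 452, and these levels lay within 1 SD of each other. PHLDA1 followed at 1899 ± 38 and IER2 at 1520 ± 140. SRF stood at 538 ± 24.4 and IER5 at 343 ± 18.5 normalized counts per kb. EGR1 at 193 ± 40.5, EGR3 at 190 ± 18.8 and NR4A2 at 156 ± 5.75 lay close together, and EGR1 differed from EGR3 and NR4A2 by less than its own SD. EGR2 was lowest, at 9.04 ± 4.09 normalized counts per kb. After R4VPL3-1 the order was NR4A1 at 3032 ± 271, IER2 at 1795 ± 161, IER5 at 1176 ± 136, EGR1 at 867 ± 72.9, IER3 at 859 ± 92.7, PHLDA1 at 587 ± 33.6, SRF at 546 ± 37.5, NR4A2 at 173 ± 35.5, EGR3 at 117 ± 10.3 and EGR2 at 8.5 ± 0.921. Within that order EGR1 and IER3, and likewise PHLDA1 and SRF, differed by less than the sum of their SDs. VHL-r placed EGR1 at 910 ± 205, PHLDA1 at 874 ± 9.34 and IER5 at 809 ± 57.6 normalized counts per kb, again within the spread of EGR1. All these levels divide the reads on all exons of a gene by the length of its canonical transcript alone. For NR4A1 that length is 2485 bases, against 7295 bases over all its annotated exons, and for IER2 it is 2110 against 3079. The rank of NR4A1 in particular thus depends on the length used.

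**Figure D1:**
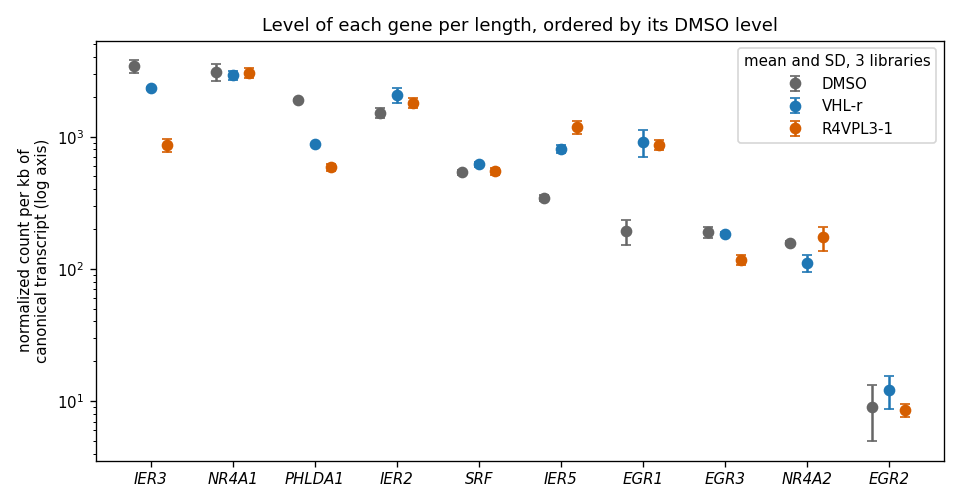
Mean normalized count per kb of canonical transcript (log axis) of each gene in DMSO (grey), VHL-r (blue) and R4VPL3-1 (orange), with bars for the SD of 3 libraries and genes ordered by their DMSO level. IER3 moves from the top of the order in DMSO, at 3416, to 859 after R4VPL3-1, while EGR1 moves from 193 to 867 and EGR2 stays lowest throughout.

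All 10 genes passed the minimum mean of 10 normalized counts and were tested in a limma fit over 15230 genes, on log2(normalized count + 1), in which a gene was called where its adjusted p (Benjamini-Hochberg, over these genes) was no higher than 0.05. Fold values are ratios of mean normalized counts, and 95% intervals are not adjusted for the number of genes. With R4VPL3-1 against DMSO, EGR1, IER5 and IER2 rose and IER3, PHLDA1 and EGR3 fell, and 4 genes were not called. Over all tested genes 13.1% were called higher and 11.8% lower in this comparison. With VHL-r against DMSO, EGR1, IER5, IER2 and SRF rose and PHLDA1, IER3 and NR4A2 fell, and 3 genes were not called, against 10.3% of all tested genes called higher and 9.51% lower. Between the compounds, IER5 and NR4A2 were higher with R4VPL3-1 and IER3, EGR3 and PHLDA1 were lower, and 5 genes were not called, where 1.14% of all tested genes were called higher and 0.729% lower. The called share of the 10 genes was above that of all tested genes in each direction, and this excess was not tested. The median log2 fold change of the 10 genes was 0.01, 0.08 and -0.19 in the 3 comparisons, and that of all tested genes was within 0.01 of 0 in each. A change of at least 2-fold was found in 4.07%, 3.12% and 0.506% of all tested genes, respectively. The comparisons with DMSO share the same 3 control libraries. Among these, DMSO replicate 1 was highest for EGR1, EGR2, EGR3, IER2, IER3, IER5, NR4A1 and SRF, and lowest for NR4A2 and PHLDA1.

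Separation of single libraries was also counted. All 3 R4VPL3-1 libraries lay above all 3 DMSO libraries for 2 of the 10 genes and below them for 3, where 19.1% and 18.9% of all tested genes were separated in these directions. The count of 2 above is thus close to the share of all tested genes. For VHL-r against DMSO the counts were 4 above and 3 below, against 17.1% and 17.2% of all tested genes. For R4VPL3-1 against VHL-r they were 2 above and 4 below, against 6.99% and 7.11%. For 1 gene alone, exact permutation of 3 and 3 libraries reaches a two-sided p of 0.1 at the lowest, so the tests rest on the spread shared across genes.

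**Figure D2:**
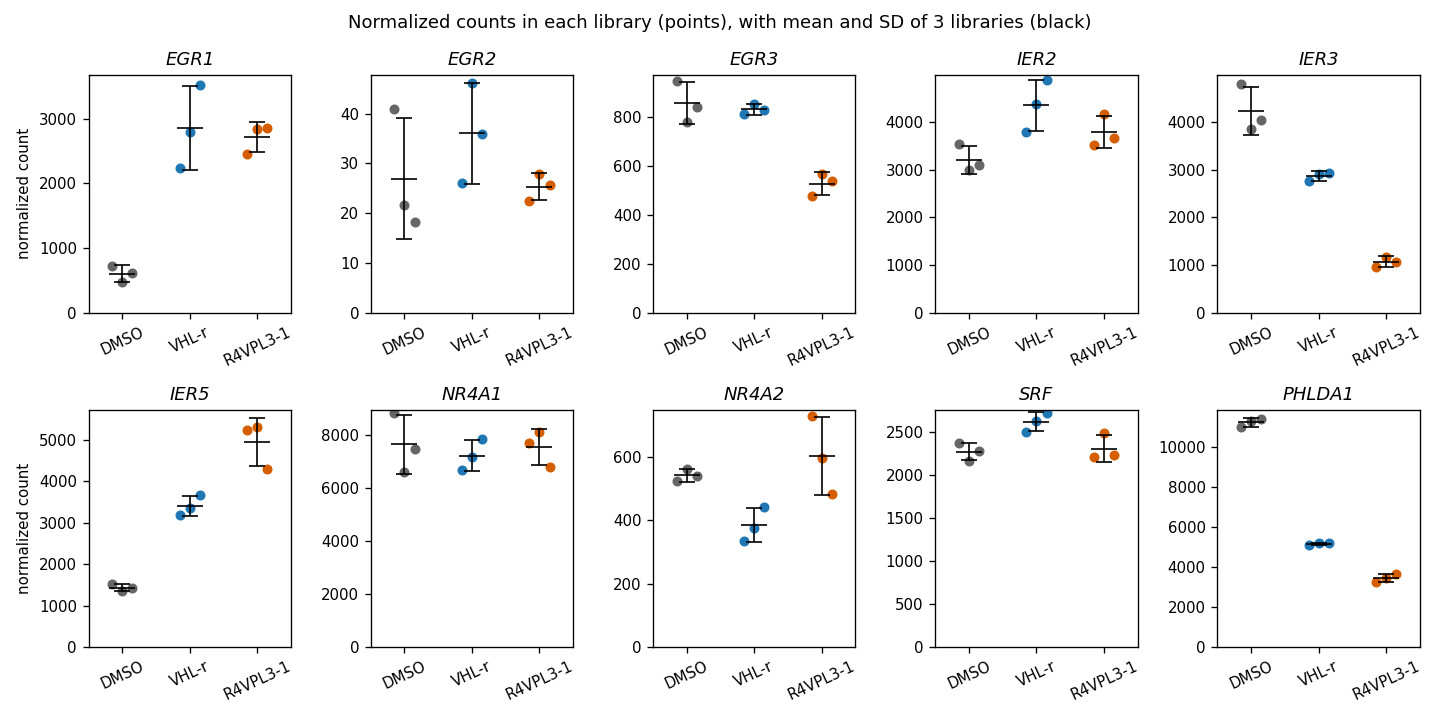
Normalized count of each of the 10 genes in each library (points, replicates 1 to 3 from left to right), with the mean and SD of 3 libraries in black and every axis starting at 0. EGR1 is high in all 6 compound libraries, IER3 and PHLDA1 fall in steps from DMSO through VHL-r to R4VPL3-1, IER5 climbs in steps, and the NR4A1 groups overlap.

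The EGR genes encode zinc finger transcription factors that bind GC-rich sites, and the 3 members measured here behaved differently. EGR1, the most widely studied of them, had 728.27, 474.22 and 610.46 normalized counts in DMSO replicates 1, 2 and 3, 2240.6, 2797.37 and 3525.36 with VHL-r, and 2456.67, 2842.43 and 2862.73 with R4VPL3-1. Every compound library lay above every DMSO library, and the 2 compound groups overlapped. EGR1 rose 4.72-fold with VHL-r, or by 2.24 ± 0.13 on the log2 scale (SE, limma adjusted p = 1.00e-10), and 4.5-fold with R4VPL3-1, or by 2.19 ± 0.13 (limma adjusted p = 6.55e-11). The compounds could not be told apart on EGR1, with a difference of -0.05 on the log2 scale, a 95% interval from -0.32 to 0.22 and a limma adjusted p of 0.966.

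EGR3, whose transcript is a known target of ERK signalling, showed another pattern. Its normalized counts were 948.02, 780.19 and 841.67 in DMSO, 809.58, 852.97 and 827.57 with VHL-r, and 476.21, 568.09 and 536.36 with R4VPL3-1. The VHL-r libraries fell inside the DMSO range, while all 3 R4VPL3-1 libraries lay below both other groups. EGR3 was 0.615-fold of DMSO with R4VPL3-1, a log2 change of -0.70 ± 0.079 (SE, limma adjusted p = 9.10e-07). With VHL-r the log2 fold change was -0.04, with a 95% interval from -0.21 to 0.12 (limma adjusted p = 0.786). The direct difference between the compounds was -0.66 ± 0.079 on the log2 scale (limma adjusted p = 1.87e-05).

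EGR2, a regulator of Schwann cell myelination and of lymphocytes, was near the limit of what these libraries can measure. It had 40.86, 21.64 and 18.25 normalized counts in DMSO, 26.02, 46.22 and 35.85 with VHL-r, and 22.41, 27.86 and 25.69 with R4VPL3-1, which rest on 18 to 45 reads per library. The groups overlapped in every comparison. Its log2 fold change against DMSO was 0.46 with VHL-r (95% interval -0.15 to 1.06, limma adjusted p = 0.321) and -0.01 with R4VPL3-1 (95% interval -0.61 to 0.60, limma adjusted p = 0.992). A true change of any size within these intervals remains possible. The log2 fold change with VHL-r was 0.79 without DMSO replicate 1 and 0.23 without DMSO replicate 3. Of its exon bases, 3.91% lie under an unnamed gene on the same strand, where htseq-count assigns reads to neither gene. EGR4, the remaining member of the family, did not reach the minimum mean and was not tested.

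NAB1 and NAB2 encode corepressors that bind EGR1, EGR2 and EGR3, and NAB2 is itself induced by EGR factors in many cells. Both fell against DMSO. The log2 fold change of NAB1 was -0.40 ± 0.064 (SE, limma adjusted p = 1.10e-04) with VHL-r and -0.54 ± 0.064 (limma adjusted p = 1.76e-06) with R4VPL3-1. For NAB2 it was -0.25 ± 0.049 (limma adjusted p = 7.53e-04) with VHL-r and -0.41 ± 0.049 (limma adjusted p = 1.57e-06) with R4VPL3-1. Neither was called between the compounds.

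The IER genes share a name for their rapid induction but do not all encode related proteins. IER3, also known as IEX-1, modulates apoptosis and ERK signalling. It had 4792.75, 3844.89 and 4039 normalized counts in DMSO, 2754.96, 2911.87 and 2930.29 with VHL-r, and 946.81, 1175.97 and 1066.3 with R4VPL3-1. The 3 groups were fully separated, with DMSO highest and R4VPL3-1 lowest. IER3 fell to 0.678-fold of DMSO with VHL-r, a log2 change of -0.55 ± 0.075 (SE, limma adjusted p = 1.38e-05), and to 0.252-fold with R4VPL3-1, a log2 change of -1.99 ± 0.075 (limma adjusted p = 6.98e-14). The difference between the compounds was -1.43 ± 0.075 on the log2 scale (limma adjusted p = 5.06e-11), the largest of the 10 genes in that comparison.

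IER5, a nuclear protein that associates with the phosphatase PP2A and can activate HSF1, moved the other way. Its normalized counts were 1518.28, 1362.63 and 1440.98 in DMSO, 3189.27, 3346.76 and 3664.66 with VHL-r, and 5237.35, 5302.81 and 4281.25 with R4VPL3-1. Again the 3 groups were separated, here with R4VPL3-1 highest. IER5 rose 2.36-fold with VHL-r, a log2 change of 1.24 ± 0.07 (SE, limma adjusted p = 7.04e-11), and 3.43-fold with R4VPL3-1, a log2 change of 1.77 ± 0.07 (limma adjusted p = 1.18e-13). The step from VHL-r to R4VPL3-1 was 0.53 ± 0.07 on the log2 scale (limma adjusted p = 6.14e-05).

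IER2, a nuclear protein related to IER5 in its amino-terminal part, changed least of the 3. It had 3541.44, 2984.02 and 3097.95 normalized counts in DMSO, 3798.71, 4383.57 and 4875.28 with VHL-r, and 3527.67, 4172.61 and 3664.6 with R4VPL3-1. VHL-r lay above DMSO in all libraries, and the R4VPL3-1 range overlapped both other groups. The log2 fold change was 0.44 ± 0.078 with VHL-r (SE, limma adjusted p = 3.05e-04) and 0.24 ± 0.078 with R4VPL3-1 (limma adjusted p = 0.0275). The R4VPL3-1 call ended under the robust option of limma (adjusted p = 0.131), under DESeq2 on recovered reads (adjusted p = 0.168), and without DMSO replicate 2 (limma adjusted p = 0.138), DMSO replicate 3 (0.086) or R4VPL3-1 replicate 2 (0.169). The difference between the compounds was -0.20 on the log2 scale, with a 95% interval from -0.36 to -0.03 and a limma adjusted p of 0.34.

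The NR4A genes encode orphan nuclear receptors that act without a known ligand and are induced by growth factors, cAMP and stress. NR4A1, also called Nur77, had 8829.99, 6602.62 and 7474.64 normalized counts in DMSO, 6674.76, 7149.43 and 7833.23 with VHL-r, and 7696.82, 8112.41 and 6794.98 with R4VPL3-1. The groups overlapped throughout. Its log2 fold change against DMSO was -0.07 with VHL-r (95% interval -0.24 to 0.09, limma adjusted p = 0.598) and -0.01 with R4VPL3-1 (95% interval -0.18 to 0.15, limma adjusted p = 0.935). Between the compounds it was 0.06, with a 95% interval from -0.11 to 0.23 (limma adjusted p = 0.912).

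NR4A2, also called Nurr1 and best known for its part in dopaminergic neurons, was one of 2 genes of the 10, with IER5, that were higher with R4VPL3-1 than with VHL-r. It had 523.04, 562.76 and 539.48 normalized counts in DMSO, 335.24, 376.06 and 442.46 with VHL-r, and 728.32, 594.95 and 481.76 with R4VPL3-1. VHL-r lay below both other groups in all libraries, and the R4VPL3-1 libraries spread from below to above the DMSO range. NR4A2 fell to 0.71-fold of DMSO with VHL-r, a log2 change of -0.50 ± 0.12 (SE, limma adjusted p = 0.00353). With R4VPL3-1 the log2 fold change against DMSO was 0.13 ± 0.12 (limma adjusted p = 0.464), and the difference between the compounds was 0.63 ± 0.12 (limma adjusted p = 0.00268). NR4A3, the remaining receptor of the family, rose with both compounds, with log2 fold changes of 0.69 ± 0.12 (SE, limma adjusted p = 2.72e-04) for VHL-r and 0.82 ± 0.12 (limma adjusted p = 3.03e-05) for R4VPL3-1. RXRA and RXRB, which encode heterodimer partners of NR4A1 and NR4A2, were not called in any comparison.

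SRF, the MADS-box factor that binds CArG boxes, changed little. It had 2376.4, 2170.37 and 2278.59 normalized counts in DMSO, 2506.79, 2632.45 and 2727.5 with VHL-r, and 2206.43, 2492.22 and 2230.02 with R4VPL3-1. VHL-r lay above both other groups in all libraries. The log2 fold change with VHL-r was 0.20 ± 0.056 (SE, limma adjusted p = 0.0117), a 1.15-fold rise, and the call was lost without DMSO replicate 2 (limma adjusted p = 0.076) or VHL-r replicate 3 (0.0507). With R4VPL3-1 the log2 fold change against DMSO was 0.02, with a 95% interval from -0.10 to 0.14 (limma adjusted p = 0.838). Between the compounds it was -0.18 ± 0.056 (limma adjusted p = 0.123), and it was called without R4VPL3-1 replicate 2 (limma adjusted p = 0.0385). Of the 3 genes whose printed windows hold a CArG box, EGR1 was thus called higher with both compounds, SRF with VHL-r, and EGR2 with neither. Among genes whose windows held no CArG box, IER5 and IER2 were called higher and PHLDA1 lower with both compounds, and NR4A1 was not called. A link between the motif and the calls was not tested.

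Of 5 SRF cofactors, ELK1, ELK4, MRTFA and MRTFB were not called in any comparison. ELK3, a ternary complex factor that can repress, fell in all 3 comparisons, with log2 fold changes of -0.34 for VHL-r against DMSO, -0.55 for R4VPL3-1 against DMSO and -0.20 between the compounds (limma adjusted p = 1.21e-05, 1.41e-08 and 0.0204). Of 11 tested SRF targets of the actin cytoskeleton, 3 were lower with VHL-r and none higher, while 4 were lower and 1 higher with R4VPL3-1, and none was called between the compounds. Over all tested genes the called shares were 9.51% lower and 10.3% higher with VHL-r and 11.8% lower and 13.1% higher with R4VPL3-1, so the single rise is no more than that background. Only 0.729% were called lower and 1.14% higher between the compounds, so a count of none among 11 genes is near that background. FHL2, a LIM-domain partner of SRF, was the furthest from DMSO, at -0.84 ± 0.077 with VHL-r and -0.94 ± 0.077 with R4VPL3-1 on the log2 scale (SE, limma adjusted p = 8.11e-08 and 8.50e-09). ACTB and VCL were among those not called against DMSO, at 0.01 and 0.10 with VHL-r and at -0.16 and 0.07 with R4VPL3-1 on the log2 scale (limma adjusted p = 0.926, 0.148, 0.0518 and 0.324).

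PHLDA1, a pleckstrin homology-like domain protein that is induced by growth factor signalling, had the smallest SE of the 10. It had 10972.1, 11316.25 and 11393.98 normalized counts in DMSO, 5108.64, 5189.27 and 5214.3 with VHL-r, and 3275.56, 3462.25 and 3673.16 with R4VPL3-1. The 3 groups were far apart, with DMSO highest and R4VPL3-1 lowest. PHLDA1 fell to 0.461-fold of DMSO with VHL-r, a log2 change of -1.12 ± 0.045 (SE, limma adjusted p = 4.64e-13), and to 0.309-fold with R4VPL3-1, a log2 change of -1.69 ± 0.045 (limma adjusted p = 2.77e-16). The difference between the compounds was -0.58 ± 0.045 (limma adjusted p = 3.41e-08). Its relative PHLDA3, a p53 target that restrains AKT, fell by 0.33 on the log2 scale with VHL-r (limma adjusted p = 2.67e-05) and by 0.44 with R4VPL3-1 (limma adjusted p = 3.92e-07), and PHLDA2 was not called in any comparison.

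**Figure D3:**
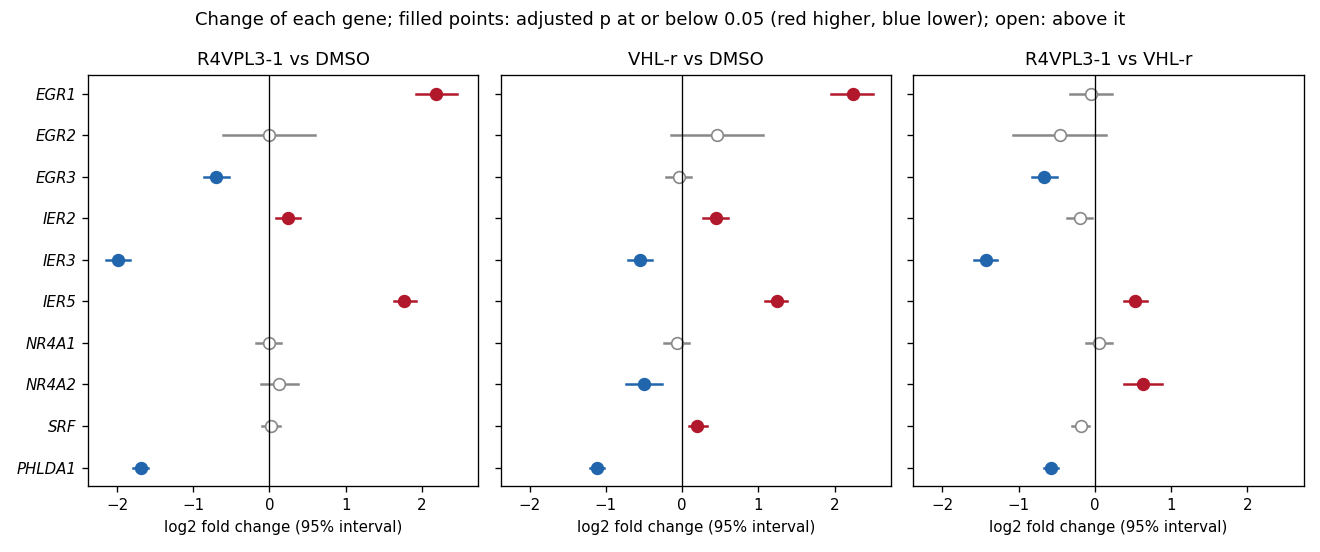
Log2 fold change of each gene in the 3 comparisons with its 95% interval from the limma fit, where filled points are genes called at an adjusted p of at most 0.05 (red higher, blue lower) and open points are not called. EGR1 is at 2.19 and 2.24 against DMSO and at -0.05 between the compounds, whereas IER3 is at -1.99, -0.55 and -1.43.

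R4VPL3-1 and VHL-r form 1 pair of related compounds at the same dose and time, and the p-values of their difference were adjusted over all 15230 genes. R4VPL3-1, which carries the RNF4-binding part and the linker in addition, was lower than the VHL-recruiting moiety alone on IER3, EGR3 and PHLDA1 and higher on IER5 and NR4A2. For IER3, PHLDA1 and IER5 both compounds moved the gene in the same direction from DMSO, and R4VPL3-1 moved it further. EGR3 was called against DMSO with R4VPL3-1 and not with VHL-r, and NR4A2 was called with VHL-r and not with R4VPL3-1. For each of these 2 genes the difference between the compounds was itself called. For EGR1, EGR2, IER2, NR4A1 and SRF no difference between the compounds was called, and the 95% intervals allow differences of up to 0.32 for EGR1, 1.07 for EGR2, 0.36 for IER2, 0.23 for NR4A1 and 0.30 for SRF on the log2 scale.

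Other immediate early genes were taken as a list of 22, of which 21 were tested. With R4VPL3-1 against DMSO 12 rose and 7 fell, with a median log2 fold change of 0.27, and with VHL-r 11 rose and 6 fell, with a median of 0.26. Between the compounds 6 were higher and 6 lower with R4VPL3-1, with a median of 0.02. Over all tested genes 13.1% were called higher and 11.8% lower with R4VPL3-1, and 10.3% and 9.51% with VHL-r. Between the compounds the shares were 1.14% and 0.729%. ARC, a neuronal activity gene, had log2 fold changes of 2.56 ± 0.14 for VHL-r and 2.59 ± 0.14 for R4VPL3-1 (SE, limma adjusted p = 5.77e-11 and 1.69e-11) and 0.02 between the compounds (limma adjusted p = 0.986). ZFP36, which encodes the mRNA decay factor tristetraprolin, rose by a log2 change of 0.93 with VHL-r and 1.67 with R4VPL3-1 (limma adjusted p = 1.03e-07 and 6.89e-12). IER5L, a relative of IER5, rose by 0.39 and 0.67 (limma adjusted p = 0.00285 and 7.15e-06).

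Other genes of the list fell with both compounds or differed between them. SGK1, a kinase gene, had log2 fold changes of -1.04 with VHL-r and -2.15 with R4VPL3-1 (limma adjusted p = 1.26e-08 and 1.16e-13), and PLK2 had -1.15 and -1.50 (limma adjusted p = 2.43e-11 and 1.20e-13). The proto-oncogene MYC fell with both, at -1.54 and -1.77 (limma adjusted p = 1.86e-10 and 9.80e-12). ATF3, a stress-induced factor, was at 0.11 with VHL-r (limma adjusted p = 0.723) and rose by 1.89 with R4VPL3-1 (limma adjusted p = 1.80e-08). TRIB1, which encodes a pseudokinase, rose by 0.34 with VHL-r and fell by 0.94 with R4VPL3-1 (limma adjusted p = 0.00306 and 9.98e-09). RHOB, a small GTPase gene, did the reverse, at -0.62 and 0.63 (limma adjusted p = 5.34e-05 and 3.26e-05). These 3 genes differed between the compounds, by 1.79 for ATF3, -1.28 for TRIB1 and 1.25 for RHOB on the log2 scale (limma adjusted p = 3.86e-07, 6.57e-10 and 2.04e-08).

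All 7 AP-1 genes were tested, and 4 rose and 2 fell with R4VPL3-1, with a median log2 fold change of 0.73, while 3 rose and 3 fell with VHL-r, with a median of 0.41. FOS rose by 1.64 with VHL-r and by 2.74 with R4VPL3-1 on the log2 scale (limma adjusted p = 1.11e-07 and 2.52e-11), and JUN fell by 0.77 with VHL-r and rose by 3.16 with R4VPL3-1 (limma adjusted p = 5.13e-04 and 9.51e-13). Between the compounds FOS, JUN and JUND were higher with R4VPL3-1 and none of the 7 was lower. The called shares over all tested genes were 13.1% higher and 11.8% lower with R4VPL3-1 and 10.3% and 9.51% with VHL-r. Between the compounds they were 1.14% and 0.729%.

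Genes that report ERK output fell for the most part. Of 12, 10 were lower and 2 higher with R4VPL3-1, with a median log2 fold change of -0.43, and 9 were lower and 2 higher with VHL-r, with a median of -0.38. Between the compounds DUSP6, SPRY2, SPRY4 and DUSP4 were lower with R4VPL3-1, and none was higher. Of all tested genes 11.8% were called lower and 13.1% higher with R4VPL3-1, and 9.51% and 10.3% with VHL-r. Between the compounds 0.729% were called lower and 1.14% higher. DUSP6, the ERK phosphatase, was at -0.41 ± 0.089 with VHL-r and -1.90 ± 0.089 with R4VPL3-1 on the log2 scale (SE, limma adjusted p = 0.00217 and 1.40e-12). The 2 genes that rose against DMSO with both compounds were DUSP5, at 0.34 and 0.31 (limma adjusted p = 0.00535 and 0.00877), and ETV5, at 0.45 and 0.40 (limma adjusted p = 1.36e-06 and 4.15e-06).

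In the list of CREB factors, coactivators and targets, 8 genes were tested. With each compound 2 rose and none fell, where 10.3% of all tested genes were called higher with VHL-r and 13.1% with R4VPL3-1, and none was called between the compounds, where few of all tested genes were. The 2 were NR4A3, which is also counted among the other immediate early genes, and the clock gene PER1, which stood at 0.93 ± 0.089 with VHL-r and 0.87 ± 0.089 with R4VPL3-1 on the log2 scale (SE, limma adjusted p = 1.41e-07 and 2.12e-07). In the list of HSF1 and its targets, the factor with which IER5 is linked, 8 of 10 rose with R4VPL3-1, 4 rose with VHL-r and 8 were higher with R4VPL3-1 than with VHL-r, and none fell. The shares of all tested genes called higher in these comparisons were 13.1%, 10.3% and 1.14%. DNAJB1 was at 0.65 with VHL-r and 2.86 with R4VPL3-1 on the log2 scale (limma adjusted p = 4.19e-06 and 6.07e-16), and HSF1 itself was at -0.03 and -0.09 (limma adjusted p = 0.792 and 0.255).

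**Figure D4:**
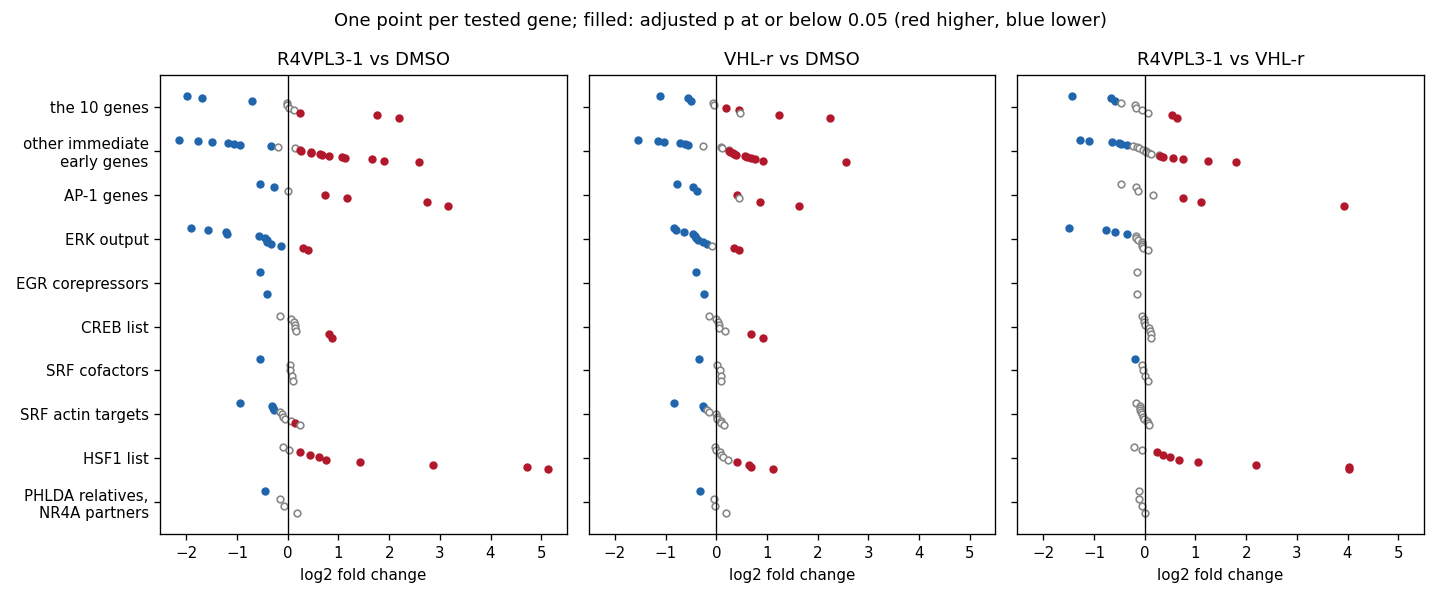
Log2 fold change of every tested gene of the 10 and of the related lists in the 3 comparisons, where filled points are called at an adjusted p of at most 0.05 (red higher, blue lower). In the 2 comparisons with DMSO, points of the 10 genes and of the other immediate early genes lie on both sides of 0. Of 12 ERK output genes, 10 are called lower with R4VPL3-1 and 9 with VHL-r, against 11.8% and 9.51% of all tested genes.

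For each of the 10, the tested genes with the most similar pattern were found by Pearson's r of log2(normalized count + 1) over the 9 libraries, which share their treatments, and r is given as a description. IER3 was closest to DUSP6 (r = 0.991) and to HES1 (r = 0.989), and DUSP6 was also the second closest to EGR3 (r = 0.975) after TENT5B (r = 0.990). PHLDA1 was closest to LRATD2 and TRIB2 (both r = 0.997). EGR1 was closest to YWHAG (r = 0.993) and SERTAD1 (r = 0.992), but in size only SERTAD1 resembled it, with mean normalized counts of 715.2, 2633 and 2721 in DMSO, VHL-r and R4VPL3-1, while YWHAG went from 13695 to 15293 and 15300. IER5 was closest to BAIAP2 (r = 0.996) and TNFSF9 (r = 0.995), IER2 to KLHL21 (r = 0.985) and MAP2K3 (r = 0.964), and SRF to CDC42EP4 (r = 0.960) and ARMC5 (r = 0.956). NR4A2 was closest to GABARAPL1 (r = 0.969) and ZNF227 (r = 0.964), NR4A1 to ZNF777 (r = 0.961) and POLD1 (r = 0.925), and EGR2 to BAHD1 (r = 0.95) and PRPF19 (r = 0.927). Neither NR4A1 nor EGR2 was called in any comparison. PRPF19 had mean normalized counts of 14692, 15015 and 14668 in DMSO, VHL-r and R4VPL3-1, against 26.92, 36.03 and 25.32 for EGR2. The closest genes were picked from among the 15230 tested genes, and how high r would reach there without a shared response was not tested. Among the 10 themselves, EGR3 and IER3 had r = 0.965, IER3 and PHLDA1 r = 0.900, EGR1 and IER5 r = 0.934, and IER5 and PHLDA1 r = -0.993.

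Most of the 10 are compact genes. On GRCh38 IER3 lies at chr6:30743199-30744548, IER5 at chr1:181088700-181092900, EGR1 at chr5:138465479-138469303, IER2 at chr19:13150411-13154911, PHLDA1 at chr12:76025447-76031776, EGR2 at chr10:62811996-62819167, SRF at chr6:43171269-43181506, NR4A2 at chr2:156324437-156342348 and NR4A1 at chr12:52022832-52059507. Their median span was 6076 bases against 32542 over all tested genes. IER5 consists of 1 exon, and 7 of the 10, or 70%, have 1 or 2 exons in their canonical transcript, against 13.3% of all tested genes, whereas SRF and NR4A1 have 7 exons and NR4A2 has 8. Apart from EGR2, where 1.67% of windows of 100 bases in the canonical transcript are found in another gene, no such window of the 10 occurs elsewhere in the annotated transcripts.

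The 3′ UTRs were searched for ATTTA, the core of AU-rich elements that mark messages for decay. The median was 2.32 copies per kb of 3′ UTR for the 10 genes and 1.77 for 12419 tested genes with an annotated 3′ UTR. IER3 had the densest 3′ UTR, with 6 copies or 8.14 per kb, followed by NR4A1 with 3 copies or 5.37 per kb, while IER2 had none. The longer element TTATTTATT occurred in 3 of the 10 genes, or 30%, against 9.95% of the tested genes, with 3 copies in IER5 and 1 each in SRF and PHLDA1. The 3′ UTRs of these genes are 3014, 2316 and 4672 bases long, respectively. These shares were not adjusted for 3′ UTR length, so they do not show that the element is enriched. Genes with the longer element thus included 1 that rose (IER5) and 1 that fell (PHLDA1) with both compounds.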

How the data were processed

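RNA of 9 cultures of A375R cells was selected for poly(A) and sequenced with a strand-specific kit as single reads of 100 bases. Per the methods of the study, reads were aligned to GRCh38 (Ensembl 109) with STAR 2.5.3a and counted per gene with htseq-count 2.0.2 in reverse mode. The deposited signal is a gene's reads divided by the size factor that DESeq2 1.36.0 gave each library, between 0.9341 and 1.1012, rounded by the authors to 2 decimals. It is called normalized count in the text. htseq-count leaves out reads that lie on exons of more than 1 gene of the same strand.

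Whole reads were recovered from the values, and 100.000% of values above 0 in each library lay within 0.1 of a whole read. Totals were 26435568 to 32085626 reads (median 28165279). Because the deposited values are normalized, limma 3.58.1 (R 4.3.3, trend) was run on log2(value + 1) of 15230 genes, those whose mean reached 10, in one fit of the 9 libraries with treatment as the only factor, and p-values were adjusted by Benjamini-Hochberg over these genes. Count tests of the recovered reads, with edgeR 4.0.16 and with DESeq2 1.42.0, were alternatives, beside other pseudocounts, filters, scalings and fits and each library left out. The limma fit was tested on simulated counts, and the other steps were not. The log2(value + 1) scale understates changes of low genes.

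Gene models were GENCODE 44, whose coordinates equalled the table's for all 10 genes. The 10 genes, the further lists and the rule for naming genes were chosen with earlier results of these data known, so they are not independent evidence. All 10 genes are named with values, and of each list the counts and some examples.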

Additional observations from a re-analysis of the deposited data

How the results depend on the processing

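The number of the 10 genes called stayed within 1.5 times its value in every alternative run, with 2 to 3 higher and 3 lower for R4VPL3-1 against DMSO, 3 to 4 higher and 3 lower for VHL-r against DMSO, and 2 higher and 3 to 4 lower between the compounds. Of the alternative values of single genes, 605 kept their direction and side of the threshold, 9 lost the call (IER2 with R4VPL3-1 and SRF with VHL-r, each also at an adjusted p of at most 0.01), 1 gained it and 12 turned sign, all of these uncalled. For R4VPL3-1 against DMSO, EGR2 turned to 0.0016 on the log2 scale with TMM scaling. With 1 library left out, EGR2 ran from -0.2314 to 0.3290, NR4A1 from -0.1126 to 0.0971, SRF from -0.0356 to 0.0523 and NR4A2 from -0.0164 to 0.2812 in that comparison, EGR2 from 0.2295 to 0.7898, EGR3 from -0.1061 to 0.0343 and NR4A1 from -0.1735 to 0.0362 for VHL-r against DMSO, and EGR1 from -0.2104 to 0.1164 between the compounds. EGR2 was not tested at a minimum mean of 50.

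Over all genes, 3792, 3016 and 285 were called for R4VPL3-1 against DMSO, VHL-r against DMSO and R4VPL3-1 against VHL-r. An adjusted p of at most 0.01 left 2494 and 1885 in the comparisons with DMSO, and leaving out R4VPL3-1 replicate 1 left 182 between the compounds. Deviations of libraries with the same replicate number correlated between -0.0056 and 0.1211, and those with different numbers between -0.1483 and 0.0982. The ranges overlap, but the same-number range lies higher at both ends. Whether the numbers pair the samples is thus not settled, and the main fit left them out. With a replicate block the counts were 4241, 3451 and 389, the counts among the 10 genes were 3 and 3, 4 and 3, and 2 and 3 as without it, and no call of the 10 genes changed. EGR2 rests on the fewest reads of the 10 genes, 18 to 45 per library.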
